A study of Arabidopsis thaliana with 12 samples.

Results

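MSRB8 (AT4G21840), MSRB9 (AT4G21850) and AT2G21640, also known as UPOX, are 3 Arabidopsis genes known for their response to oxidative stress, of 17290 genes that the array annotation names. Each was linked to 1 probe set, which makes 3 of the 17481 probe sets with a named gene, out of 38408 on the array. The 3 genes were chosen from values of these same libraries, in all 4 groups, so their levels and differences are given as a description, with standard errors and without a test.

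The libraries came from 10-day-old seedlings of Arabidopsis thaliana, raised upright, after 3 days of stratification, at 20 °C with 16 h of light a day, on agar (1%) that held sucrose (1%). They formed 4 groups of 3: roots of the line labelled aladin, roots of the wild-type accession Wassilewskija-4 (WT below), aladin shoots and WT shoots. Signals from Affymetrix Arabidopsis Gene 1.0 ST arrays were given after RMA in log2 units, so a difference of 1 is a 2-fold change. Precision is set by the 3 arrays in each group. The titles call the replicates biological. The labels do not state the allele of the aladin line, how many seedlings went into a library, or whether replicates were grown separately, so p-values measure the spread between these libraries. ALADIN (AT3G56900), the nuclear pore gene that gives the line its name, did not go down in the libraries labelled aladin. Its mean signal was 12.69 in aladin roots and 8.39 in WT roots (limma adjusted p = 1.91e-11), and 12.39 in aladin shoots and 7.74 in WT shoots (limma adjusted p = 7.56e-12). Below, aladin therefore means the libraries labelled aladin.

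Reactive oxygen species oxidise methionine in proteins to methionine sulfoxide, and methionine sulfoxide reductases turn it back. Type A enzymes act on the S form of the sulfoxide and type B enzymes, to which MSRB8 and MSRB9 belong, on the R form, with electrons that usually come from thioredoxins or glutaredoxins. MSRB8 and MSRB9 lie side by side in a tandem cluster of MSRB genes and code for cytosolic forms. UPOX is a small mitochondrial protein whose transcript is widely used as a marker of oxidative stress and of disturbed mitochondria.

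MSRB8 was higher in aladin than in WT in both organs. Its signal was 7.27, 7.20 and 7.42 in the 3 aladin root libraries, against 5.90, 6.25 and 6.32 in the WT root libraries. The lowest aladin root lay 0.87 above the highest WT root, and the difference of the means was 1.14 (SE 0.24), or 2.20-fold. In shoot the signal was 4.79, 3.53 and 4.35 in aladin, against 3.03, 3.08 and 3.22 in WT. The shoot groups did not overlap either, but aladin replicate 2 lay only 0.31 above the highest WT library. The shoot difference was 1.11 (SE 0.24), or 2.16-fold, and the effect in root minus that in shoot was 0.03 (SE 0.34). All 3 WT shoot libraries and aladin shoot replicate 2 fell below 4.031, the 25th percentile of all signals. Array signals flatten in this dim range, so the shoot fold rests on values near the lower end of the scale. The 3 aladin shoots also spread far more (SD 0.64, n = 3) than the WT shoots (SD 0.10, n = 3). The SE pools the spread of all 4 groups and does not show this.

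MSRB9, its neighbour, was higher in aladin in shoot, while its root groups overlapped. In shoot its signal was 8.14, 7.62 and 8.41 in aladin, against 7.27, 7.36 and 7.03 in WT. All 3 aladin shoots lay above all WT shoots, with a gap of 0.26, and the difference was 0.83 (SE 0.16), or 1.78-fold. In root its signal was 10.66, 10.60 and 10.45 in aladin, against 10.56, 10.55 and 10.61 in WT. The WT values lay inside the range of the aladin values, and the root difference was -0.004 (SE 0.16). The effect in root minus that in shoot was -0.84 (SE 0.23). The SE pools all 4 groups, although the shoots spread more (SD 0.40 in aladin, 0.17 in WT) than the roots (0.10 and 0.03). The probe sequences were not analysed here, and signal from one gene of the tandem pair on the probes of the other cannot be told apart from its own.

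AT2G21640 was higher in aladin shoots, and its root values overlapped. In shoot its signal was 7.42, 6.86 and 7.39 in aladin, against 6.56, 6.26 and 6.30 in WT. The groups were 0.30 apart and the difference was 0.85 (SE 0.20), or 1.80-fold. In root the signal was 7.84, 8.31 and 8.62 in aladin, against 7.61, 7.98 and 7.63 in WT. Here aladin replicate 1 lay below WT replicate 2, while the other 2 aladin libraries lay above all WT roots. The root difference was 0.52 (SE 0.20), or 1.43-fold, and it came to 0.34 without aladin root replicate 3. The effect in root minus that in shoot was -0.33 (SE 0.29).

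**Figure D1:**
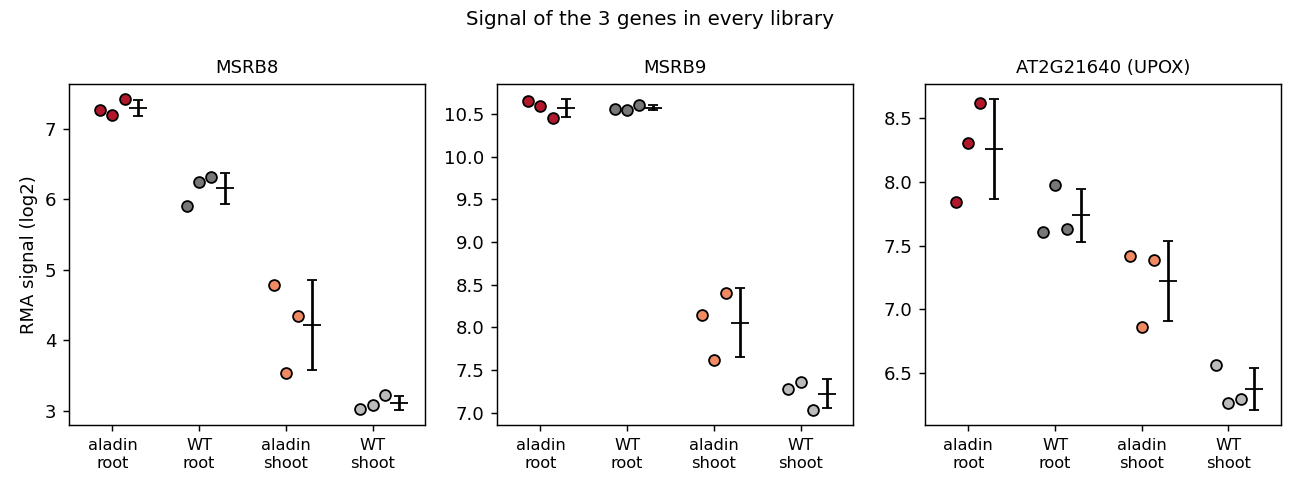
RMA signal (log2, vertical axis; the axes do not start at 0 and differ between panels) of MSRB8, MSRB9 and AT2G21640 in the 4 groups. Each dot is a library, in the order of replicates 1 to 3, and the bar beside it gives the mean ± SD (n = 3). The 3 aladin shoots lie above the 3 WT shoots for each gene, whereas in root only MSRB8 separates the genotypes.

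In aladin shoots, replicate 2 was the lowest of the 3 for each of the genes. Measured from the WT shoot mean, it was 0.42 higher for MSRB8, 0.40 for MSRB9 and 0.49 for AT2G21640, while replicate 1 was 1.68, 0.92 and 1.05 higher and replicate 3 was 1.23, 1.18 and 1.02 higher. The 3 genes thus shared which shoot library was weakest, but how many of all probe sets did so was not counted. In root they did not: the lowest aladin library was replicate 2 for MSRB8, replicate 3 for MSRB9 and replicate 1 for AT2G21640.

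Set against all tested probe sets, the aladin minus WT differences of the 3 genes lay high in shoot and were spread out in root. Counted from the highest of 17481, MSRB8 was at place 64 in shoot and 213 in root, AT2G21640 at 115 in shoot and 766 in root, and MSRB9 at 122 in shoot and 7477 in root. In shoot, 3 of 3 had all aladin libraries above all WT libraries, as did 8.0% of all tested probe sets. In root this held for 1 of 3, MSRB8, and for 13.4% of all. In both organs it held for MSRB8 alone of the 3, and for 3.04% of all. Since these contrasts served to choose the genes, nothing is read from the counts.

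**Figure D2:**
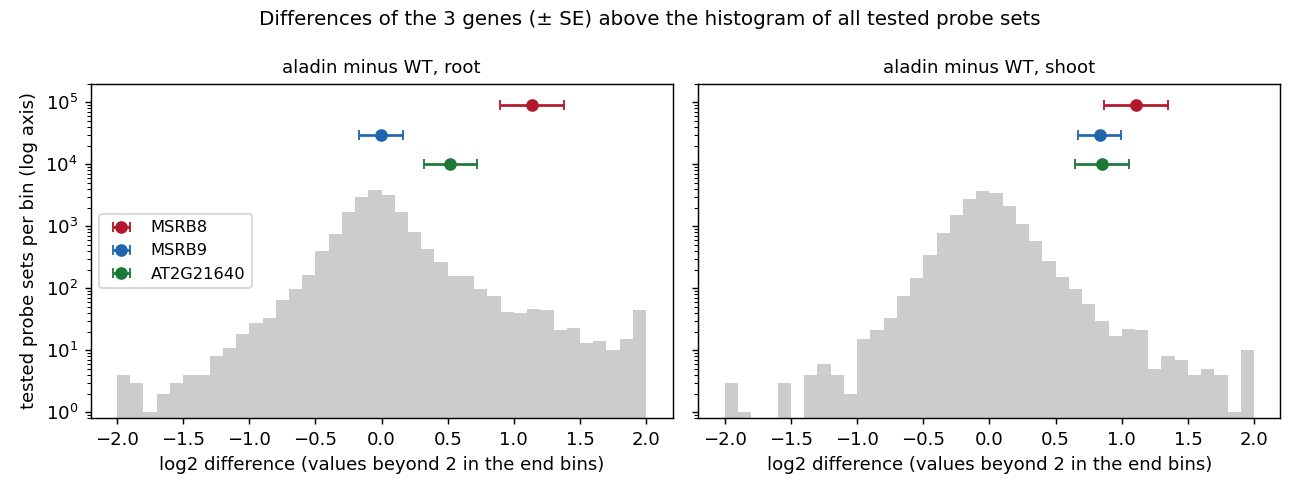
Differences (log2, horizontal axis) of aladin minus WT in root (left) and shoot (right). The grey histogram counts all 17481 tested probe sets per bin of 0.1 on a log axis, with values beyond 2 gathered in the end bins; the coloured points are the 3 genes with ± SE from limma, and their height has no meaning. In shoot all 3 points lie in the right tail; in root MSRB9 sits at the centre.

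All 3 genes had more signal in root than in shoot. Between WT organs the difference was 3.35 for MSRB9 (SE 0.16), 3.04 for MSRB8 (SE 0.24) and 1.36 for AT2G21640 (SE 0.20), root minus shoot, and the WT organs did not overlap for any of them, as for 34.4% of all tested probe sets higher in root. Between aladin organs the difference was 2.51 for MSRB9, 3.07 for MSRB8 and 1.04 for AT2G21640. For MSRB8 the order of the groups was aladin root, WT root, aladin shoot and WT shoot, with no overlap between neighbours. For MSRB9 the root groups overlapped at the top, and aladin shoot came before WT shoot. AT2G21640 had the same order of means, with the root groups overlapping and with aladin shoots up to 7.42 just below the lowest WT root at 7.61.

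Markers of the organs were set beside these values. Here and below, a gene counts as measured if the array annotation linked it to a probe set of exactly 1 gene. Other genes may still be on the array, since 20927 probe sets had no named gene and 759 had several. The 3 measured root markers of 23 listed were EXPA7 and EXPA18, expansins of root hairs, and PYK10, a beta-glucosidase of roots. Their mean signal in shoot was 7.27 to 7.50 in aladin and 7.32 to 7.56 in WT. These means overlapped, but single markers moved in opposite directions: in shoot EXPA7 was lower in aladin without overlap (-0.25, adjusted p = 0.276), PYK10 was higher without overlap (0.15, adjusted p = 0.320) and EXPA18 overlapped (-0.16). The lowest mean among aladin shoots was that of replicate 2 (7.27), the library that was also lowest for the 3 genes. Among WT shoots replicate 2 had the lowest marker mean too (7.32). There it was the highest for MSRB9 (7.36), the middle one for MSRB8 (3.08) and the lowest for AT2G21640 (6.26). Among 302 other probe sets at least 3 log2 units higher in root than in shoot, a set formed after the values were seen, the median shoot difference was 0.09, with 29 higher (9.60%) and 4 lower (1.32%) in aladin past the threshold. Of all tested probe sets, 1.49% passed as higher and 1.47% as lower in shoot. The calls in this set of root genes thus leaned towards higher in aladin shoots, the direction of the 3 genes. Counted from the highest shoot difference of the 302, MSRB8 would stand at place 9, AT2G21640 at 17 and MSRB9 at 18. The median root difference of the set was -0.14. Over both genotypes MSRB8 (3.06) reached that cut, while MSRB9 (2.93) and AT2G21640 (1.20) did not. At a cut of 1 log2 unit, which all 3 reach, 1972 other probe sets had a median shoot difference of 0.03. Of these, 6.39% passed as higher and 2.59% as lower, a weaker lean. The part of the markers or of these sets in the result was not tested. In root, the 5 measured photosynthesis markers of 19 listed had a mean signal of 6.49 to 7.15 in aladin and 6.45 to 6.59 in WT. RCA, Rubisco activase (log2 difference 0.61, adjusted p = 0.00306), and SBPASE, a Calvin cycle enzyme (0.58, adjusted p = 0.0160), were higher in aladin roots, 2 of 5 against 4.63% of all tested probe sets. The light-harvesting gene LHCB4.2 had a difference of the opposite sign (-0.53, adjusted p = 0.0916), PORB had 0.56 (adjusted p = 0.279) and LHCB4.1 had 0.13, none past the threshold. Their part in the root values of the 3 genes was not tested. In WT each of the 5 photosynthesis markers was higher in shoot and each of the 3 root markers in root, as labelled. Levels in such bulk samples do not tell fewer cells of a type from less RNA per cell.

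The genes listed as responding to touch or wounding moved with the genotype as well. Of 18 listed, 4 were measured, and all 4 passed the threshold as higher in aladin roots, against 4.63% of all tested probe sets. In shoot 2 of 4 did, against 1.49% of all. One of them, the zinc-finger repressor gene STZ (ZAT10), is described further down. CML38, a calmodulin-like protein, had a log2 difference of 2.81 in root (adjusted p = 2.43e-06) and of 0.79 in shoot (adjusted p = 0.0296), and CML37, of the same family, one of 1.36 in root (adjusted p = 5.40e-05). The shoot call of CML38 ended without aladin shoot replicate 1 or 2 (adjusted p = 0.0907 and 0.0743), without WT shoot replicate 1 (0.0501) and in a fit on shoot alone (0.205). CML39 (AT1G76640) had one of 0.88 in root (adjusted p = 0.00302). The mean signal of the 4 genes was 7.26 to 7.43 in aladin roots and 5.54 to 5.62 in WT roots, and 5.52 to 5.63 in aladin shoots and 4.40 to 4.84 in WT shoots. In shoot the genotypes overlapped for CML37 (-0.08) and CML39 (0.04). The part of these genes' response in the result was not tested. Since the list was chosen with earlier results of these data known, nothing is read from its counts.

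**Figure D3:**
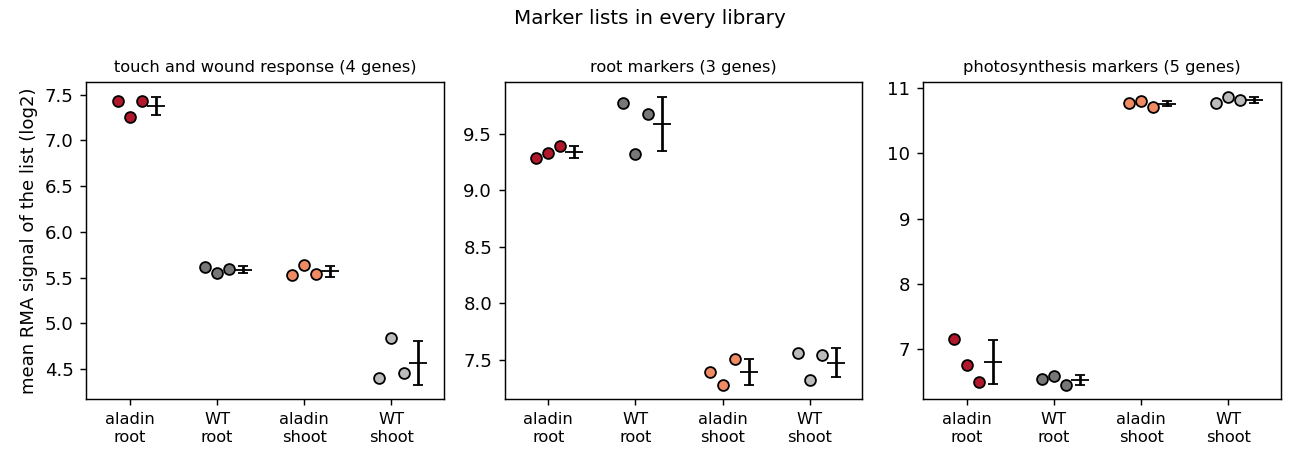
Mean RMA signal (log2, vertical axis, not starting at 0) over the measured genes of the touch and wound list, the root markers and the photosynthesis markers, per library (dots, replicates 1 to 3) with mean ± SD (n = 3). The mean of the touch and wound genes separates the genotypes in both organs, although in shoot only 2 of the 4 genes do. The mean of the root markers overlaps between aladin and WT shoots, with EXPA7 lower and PYK10 higher in aladin.

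The comparison with other genes of the same pathways asked whether they differed between the genotypes too. For these, limma was run on all 12 libraries with Benjamini-Hochberg adjustment over the 17481 probe sets. Of 12 other methionine sulfoxide reductase genes, 5 were measured. None of them passed in root or shoot by limma, with 0 of 5 at an unadjusted p under 0.05 in either organ. MSRB7 and MSRB2, the listed genes on either side of the MSRB8 and MSRB9 pair, were not among the measured genes. Of all tested probe sets, 4.63% passed as higher and 3.01% as lower in root, 1.49% and 1.47% in shoot, and 20.1% in root and 17.5% in shoot had an unadjusted p under 0.05. At these shares a count of 0 among 5 is near the background. MSRB3, a form of the endoplasmic reticulum, had a mean signal of 8.84 in aladin roots and 8.83 in WT roots, and of 7.81 in aladin shoots and 7.77 in WT shoots. MSRB4 had a root difference of -0.36 (adjusted p = 0.484), with all aladin roots below all WT roots, and a shoot difference of -0.36 (adjusted p = 0.501). For MSRB5 these were -0.15 and -0.28, for MSRB6 -0.06 and 0.26, and for MSRA5, the type A gene among them, -0.04 and -0.10. The median of the 5 was -0.06 in root and -0.10 in shoot, and the median of all tested probe sets was -0.04 in root and -0.02 in shoot. MSRB4 and MSRB5 shared the weak aladin shoot library of MSRB8 and MSRB9, at 6.69 and 4.51 in replicate 2, but their WT shoot values reached down to 7.04 and 4.86 and overlapped the other aladin shoots. MSRB3 to MSRB6 are a second tandem group of similar genes, so their probes may not separate them fully. Between WT organs 3 of them resembled MSRB8 and MSRB9 in direction, with root minus shoot differences of 1.06 for MSRB3, 1.52 for MSRB4 and 1.19 for MSRB5, whereas MSRB6 had -1.15.

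**Figure D4:**
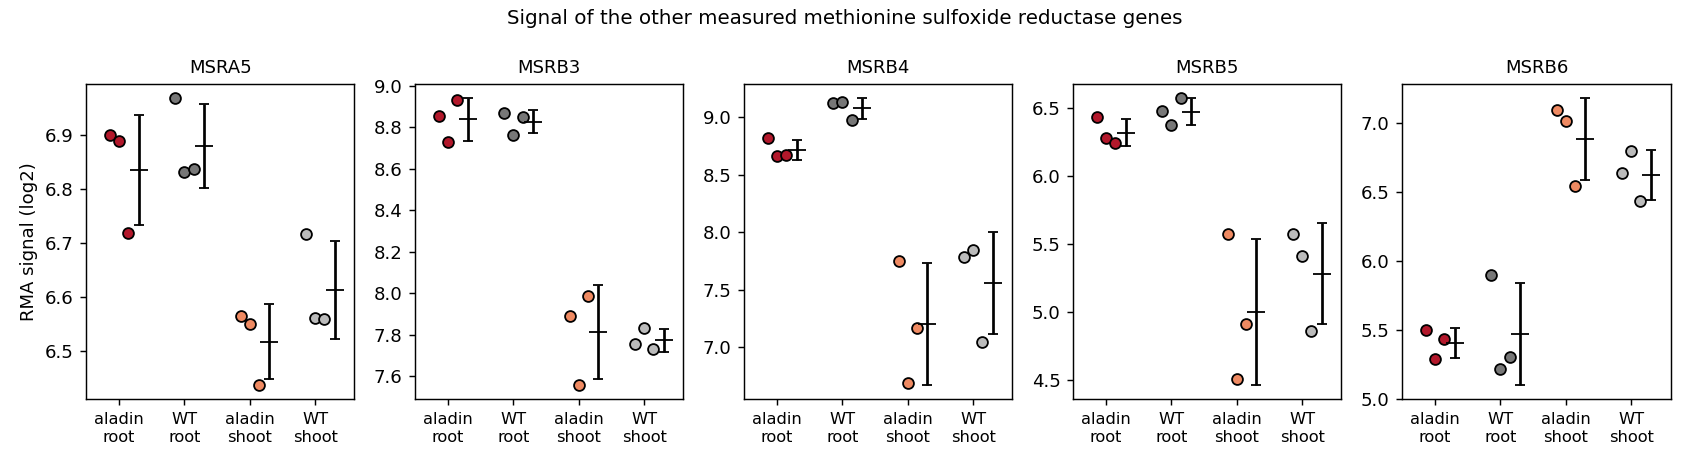
RMA signal (log2, vertical axis; axes do not start at 0 and differ between panels) of the 5 other measured methionine sulfoxide reductase genes, per library (dots, replicates 1 to 3) with mean ± SD (n = 3). None passed the threshold between aladin and WT in root or in shoot.

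Some genes of the mitochondrial stress response rose in aladin roots. Of 36 listed, 12 were measured (AT2G21640 not counted), of which 4 rose and 1 fell in root, against 4.63% of all tested probe sets that rose and 3.01% that fell. NDB4, an alternative NAD(P)H dehydrogenase of the inner mitochondrial membrane, had a signal of 6.79, 7.15 and 7.15 in aladin roots, against 5.47, 5.79 and 5.56 in WT roots, and rose by 1.42 (SE 0.17, adjusted p = 2.52e-04). AT2G41730 had 5.22, 5.91 and 6.56 in aladin roots, against 3.53, 4.56 and 4.41 in WT roots, and its rise was 1.73 (SE 0.31; adjusted p = 0.00399). AT2G32020, coding for an acetyltransferase-like protein, rose by 0.95 (SE 0.16, adjusted p = 0.00271). The rise of AT5G43450, a dioxygenase gene, was 0.50 (SE 0.13, adjusted p = 0.0348). That call ended without aladin root replicate 2 or 3 (adjusted p = 0.120 and 0.146), without WT root replicate 1 or 3 (adjusted p = 0.127 and 0.148) and with a replicate block (adjusted p = 0.0531). AT5G09570, coding for a small protein with conserved cysteines, went the other way, falling by 0.77 (SE 0.14, adjusted p = 0.00502). For the remaining 7 the threshold was not reached. They include NDB2, a further alternative dehydrogenase (0.43, adjusted p = 0.215), and the mitochondrial small heat shock protein gene AT5G51440 (0.45, adjusted p = 0.166). The median of the 12 was 0.39. This list too was chosen with earlier results of these data known, so nothing is read from its counts in root or shoot.

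In shoot 1 of these 12 rose, against 1.49% of all tested probe sets, and none fell, against 1.47%. It was AT2G41380, coding for a methyltransferase-like protein, with a signal of 7.17, 7.05 and 7.61 in aladin, against 5.93, 5.73 and 6.62 in WT (log2 difference 1.18, SE 0.20, adjusted p = 0.0117). Its root difference was -0.09, so like MSRB9 it separated the genotypes in shoot and overlapped in root. The call ended in a fit on the shoot libraries alone (adjusted p = 0.137). Among the genes that did not pass were NDB2 (0.49), NDB3 (0.50), AT5G51440 (0.43) and NDB4 (0.41), the last with an adjusted p of 0.231. NDB3 was dim in the shoots of both genotypes (3.98 in aladin and 3.48 in WT). The median of the 12 was 0.25 in shoot.

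The thioredoxins and glutaredoxins, which can supply electrons to the reductases, mostly stayed short of the threshold. Of 31 listed, 15 were measured, with 1 rise in root, a share near the 4.63% of all tested probe sets, and 2 falls in shoot, against 1.47% of all. GRX480, a glutaredoxin of the CC type that binds TGA transcription factors, had a signal of 5.69, 5.84 and 6.03 in aladin roots, against 3.92, 3.85 and 3.76 in WT roots (log2 difference 2.01, SE 0.13, adjusted p = 2.88e-06). In shoot it was dim in both genotypes (3.23 in aladin and 3.29 in WT). AT4G15700 and AT4G15680, CC-type glutaredoxins of 1 tandem cluster, fell in shoot. AT4G15700 had 3.49, 3.17 and 3.51 in aladin shoots, against 4.24, 4.88 and 4.70 in WT shoots, a fall of 1.22 on the log2 scale (SE 0.15; adjusted p = 0.00171). For AT4G15680 the shoot difference was -0.72 (SE 0.08; adjusted p = 0.00131). AT4G15690 of the same cluster had a shoot difference of -0.49 (adjusted p = 0.174), and near-identical copies in such a cluster may share signal. AT4G15700 did not pass in a fit on the shoot libraries alone (adjusted p = 0.0554), and its aladin shoots lay below 4.031. ROXY1, known from petal development, had a root difference of -0.43 (adjusted p = 0.0710). ty2, a plastid thioredoxin of the y type, had one of 0.28 (adjusted p = 0.0800).

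None of the measured scavenging enzymes, 9 of 46 listed, passed in either organ by limma, with 3 in root and 0 in shoot at an unadjusted p under 0.05, against 20.1% and 17.5% of all tested probe sets. With 4.63% of all higher and 3.01% lower in root, and 1.49% and 1.47% in shoot, 0 of 9 is near the background. Their root differences ran from -0.24, for the peroxiredoxin gene AT3G52960 (PRXIIE, adjusted p = 0.0574), to 0.30, for the thylakoid ascorbate peroxidase TAPX (adjusted p = 0.160), and their shoot differences from -0.15 to 0.13. GR, the glutathione reductase of plastids and mitochondria (AT3G54660), had a mean of 8.79 in aladin roots and 8.99 in WT roots (adjusted p = 0.184).

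Of the detoxification list 6 of 29 genes were measured, on 7 probe sets, with 1 rise in each organ, against 4.63% of all tested probe sets in root and 1.49% in shoot. In root it was GSTU22, a glutathione transferase, with 9.30, 9.57 and 9.77 in aladin, against 9.11, 8.69 and 8.87 in WT (log2 difference 0.66, SE 0.14, adjusted p = 0.0119). It did not pass without aladin root replicate 3 (adjusted p = 0.0558) or WT root replicate 2 (adjusted p = 0.0578). In shoot it was UGT73B5, a glucosyltransferase known from redox stress, with 6.96, 6.42 and 6.81 in aladin, against 5.22, 5.19 and 5.82 in WT (log2 difference 1.32, SE 0.20, adjusted p = 0.00584; 0.0719 in a fit on the shoot libraries alone). In root it had a difference of 0.66 without overlap (adjusted p = 0.0732). Its near copy UGT73B4 had 0.50 in root and 0.78 in shoot, and neither passed. UGT73C6, measured by a pair of probe sets, had shoot differences of 0.37 (adjusted p = 0.208) and -0.05. The medians were 0.35 in root and 0.25 in shoot.

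Of the genes of reactive oxygen production and signalling, 3 of 28 were measured. STZ had a signal of 11.87, 11.84 and 12.01 in aladin roots, against 9.96, 9.59 and 9.86 in WT roots, and rose by 2.1 (SE 0.18, adjusted p = 2.72e-05). In shoot it rose by 3.25 (SE 0.18, adjusted p = 7.54e-06), with 9.73, 9.73 and 9.51 in aladin, against 6.05, 6.91 and 6.27 in WT. STZ also stands in the touch and wound list, and it is the 1 gene of all 7 lists besides CML38 that passed in both organs. WRKY6, a transcription factor of defence and senescence, had differences of 0.30 in root and 0.70 in shoot (adjusted p = 0.448 and 0.0806), and ZAT7 had 0.39 and 0.21, with no call.

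Over all 7 lists, 53 of 198 genes were measured, by the annotation as defined above, on 54 probe sets. In root 10 rose and 1 fell, against 4.63% and 3.01% of all tested probe sets. In shoot 4 rose and 2 fell, against 1.49% and 1.47%. The touch and wound list, with STZ, held 4 of the 10 rises in root and 2 of the 4 in shoot. The lists were chosen with earlier results of these data known, so nothing is read from these counts. The median over the 54 was 0.09 in root and -0.003 in shoot. The effect of the genotype differed between the organs for 9 of them by the interaction of the same fit, as it did for 2.15% of all tested probe sets. Several of the 9 were dim in root or in shoot, as given further down.

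**Figure D5:**
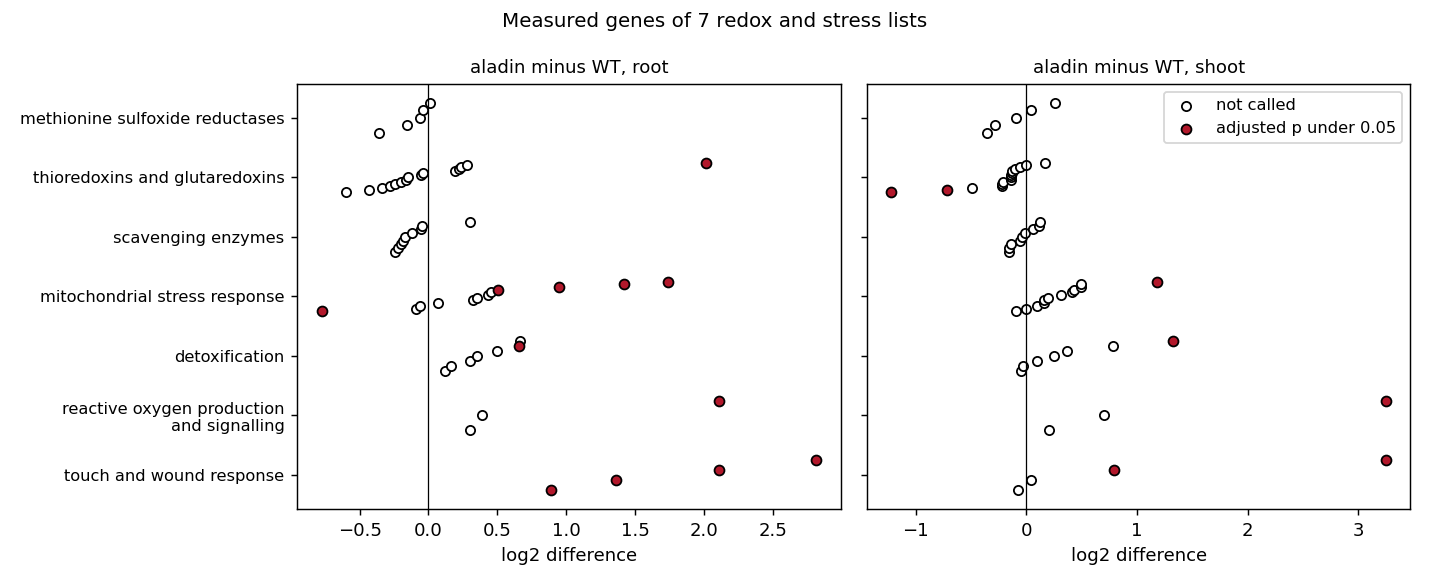
Differences (log2, horizontal axis) of aladin minus WT in root (left) and shoot (right) for the measured probe sets of the 7 lists, 1 row per list. Red points passed an adjusted p of 0.05 by limma over 17481 probe sets and white points did not; STZ appears in 2 lists. The methionine sulfoxide reductases and the scavenging enzymes hold no red point.

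None of the 12 tested genes beside the 3 on their chromosomes passed in either organ by limma, where 4.63% of all tested probe sets passed as higher and 3.01% as lower in root, and 1.49% and 1.47% in shoot. Before the MSRB8 and MSRB9 pair lay AT4G21820, DER2.1 and QQT2, and after it AT4G21865, AT4G21870 and AT4G21880, with 1 to 4 genes between them and the pair. Their root differences ran from -0.33 for AT4G21820 (adjusted p = 0.0703) to 0.20 for AT4G21865, and their shoot differences from -0.62 for AT4G21870 (adjusted p = 0.0620) to 0.44 for AT4G21865 (adjusted p = 0.209). AT4G21820 was lower without overlap in both organs, opposite to MSRB8, and came closest to the threshold in shoot (-0.41, adjusted p = 0.0527). AT2G21630, the gene next to AT2G21640, had -0.01 in root and -0.10 in shoot, and RD2, with 1 gene between, had -0.13 and -0.06. The other 4 neighbours of AT2G21640 (APL4, AT2G21655, AT2G21680 and AT2G21690) did not pass either (root differences -0.34 to 0.33, shoot differences -0.48 to 0.12).

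The genes with the most similar patterns were sought by Pearson's r over the 12 libraries among 16573 other probe sets of exactly 1 gene. Libraries of a group and of an organ share their source, so the r is a description. Genes picked by a high r share the pattern by selection, so nothing is read from the likeness of their differences. For MSRB8 they were AT5G18310 (r = 0.992), AT5G41170 (0.991), AT2G33710 (0.989), AT5G18490 (0.988) and AT5G37540 (0.986), all with positive differences in both organs, of 0.21 to 0.70 in root and 0.17 to 0.67 in shoot. For MSRB9 they were AT1G36060 (0.996), AT4G29700 (0.996), AT1G51840 (0.995), AT2G40113 (0.995) and SBT4.12 (0.994), a subtilase. Like MSRB9 these were root genes with root differences near 0, between -0.15 and 0.07, and shoot differences of 0.63 to 1.21. For AT2G21640 they were AT4G01870 (0.971), AT1G17147 (0.970), AT2G07719 (0.969), AT1G19020 (0.968) and the glucosyltransferase UGT73B2 (0.968). Among each other, r was 0.958 between MSRB8 and MSRB9, 0.946 between MSRB8 and AT2G21640 and 0.888 between MSRB9 and AT2G21640. AT2G21640 had MSRB8 at place 33 of its list and MSRB9 at place 369.

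With each organ centred on its own mean, which removes the difference between root and shoot, the similarity fell to 0.866 between MSRB8 and AT2G21640, 0.692 between MSRB9 and AT2G21640 and 0.660 between MSRB8 and MSRB9. The tandem neighbours thus resembled each other least on this scale. The nearest genes were then AT2G23680 (0.971), AT1G68945 (0.960), AT2G33710 (0.959), AT2G20142 (0.958) and AT1G08230 (0.958) for MSRB8, and AT1G09500 (0.948), AT5G05600 (0.935), AT5G53720 (0.932), AT4G29700 (0.931) and AT1G36060 (0.931) for MSRB9. For AT2G21640 they were AT5G27760 (0.946), AT3G21690 (0.942), AT1G33110 (0.940), AT5G23850 (0.936) and AT5G13370 (0.935). AT2G33710, an ERF-type transcription factor gene, stood in both lists of MSRB8, with differences of 0.60 in root and 0.67 in shoot, and AT4G29700 and AT1G36060 stood in both lists of MSRB9.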

How the data were processed

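The authors deposited 1 table of log2 values for 38408 probe sets and 12 libraries, which the submitters' processing notes credit to RMA. Software and chip description are not named in the sources. It held no missing values and no detection calls. Library medians ran from 5.86 to 6.00, and Pearson's r within groups from 0.983 to 0.993. Probe sets were named by the supplied array annotation (16722 with exactly 1 gene, 759 with several), with symbols and gene order from the RefSeq annotation TAIR10.1, in which 16574 of the 16722 were found. No coordinates or sequences were used.

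Groups came from the sample titles. Group means were fitted to all 12 libraries with limma 3.58.1 in R 4.3.3 (lmFit and eBayes, residual degrees of freedom 8, prior 3.67), without a replicate block. Values of p were adjusted over the 17481 named probe sets, with a threshold of 0.05. Of a difference, the SE is that of limma, with 1 spread per probe set over all groups, so that it is equal in both organs. For MSRB8 and MSRB9, whose aladin shoots spread most, it understates the uncertainty in shoot. The procedure was tested on simulated data. Same-numbered libraries were checked for pairing by correlating their deviations from the group means, which gave r between -0.057 and 0.097, so the numbers were not taken to pair the libraries. The genes, the lists and the rules were chosen with earlier results of these data known. Named genes were the 3 genes, ALADIN, all measured reductases, up to 6 called genes per list and organ and up to 3 others by smallest p, the 3 nearest tested genes on each side, the 5 most similar genes on each scale, and markers. Alternatives covered normalization, prior, dim and unnamed probe sets, weights, organ-wise fits, replicate blocks, thresholds and leaving out each library. Figures were drawn with matplotlib 3.10.9 in Python 3.11.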

Additional observations from a re-analysis of the deposited data

Results flagged for a closer look

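Among the list genes and chromosomal neighbours, 9 had a genotype effect that differed between root and shoot by the interaction of the limma fit (adjusted over 17481 probe sets), given here as the root effect minus the shoot effect. It was positive for GRX480 (2.07, adjusted p = 2.00e-04; root 2.01, shoot -0.06), CML38 (2.02, adjusted p = 0.00107; root 2.81, shoot 0.79), CML37 (1.44, adjusted p = 0.0020; root 1.36, shoot -0.08), AT4G15700 (1.44, adjusted p = 0.00508; root 0.22, shoot -1.22), AT2G32020 (1.04, adjusted p = 0.0375; root 0.95, shoot -0.09) and AT4G15680 (0.68, adjusted p = 0.0131; root -0.04, shoot -0.72). It was negative for AT2G41380 (-1.27, adjusted p = 0.0460, root -0.09, shoot 1.18), STZ (-1.15, adjusted p = 0.0460, root 2.1, shoot 3.25) and AT5G09570 (-0.97, adjusted p = 0.0320, root -0.77, shoot 0.19). Several of these genes were dim, with means below 4.031 in aladin and WT of 1 organ. In shoot these were GRX480 (3.23 and 3.29) and CML37 (3.22 and 3.30). In root they were AT4G15700 (2.75 and 2.53) and AT4G15680 (3.68 and 3.73). AT2G32020 was near that value in shoot (4.02 and 4.11). Their interactions thus rest partly on values near the lower end of the scale.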

How the results depend on the processing

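Over 23 alternatives the differences of aladin minus WT moved for all 3 genes by less than the pooled SD of the compared groups. For most alternatives this was fixed in advance. Leaving out 1 of 3 libraries cannot move a difference that far. The prior, the choice of probe sets, organ-wise fits and replicate blocks leave it unchanged. Only the normalizations and the array weights could have moved it further. In shoot MSRB8 and MSRB9 moved by more than the SE and the WT SD (to 1.45 and 1.05 without aladin shoot replicate 2). They ran from 1.01 to 1.22 (MSRB8), from -0.05 to 0.05 (MSRB9, above 0 in 4) and from 0.34 to 0.73 (AT2G21640) in root, and from 0.83 to 1.45, 0.66 to 1.05 and 0.75 to 1.03 in shoot. These extremes in root and shoot came from leaving out single libraries. WT root minus WT shoot ran from 2.96 to 3.17 (MSRB8), 3.25 to 3.42 (MSRB9) and 1.25 to 1.46 (AT2G21640).

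Of the 17 calls on list genes, 11 held under every alternative fit and without each library, at an adjusted p of 0.05. Besides the losses given above, AT5G43450 in root was lost with all probe sets tested (adjusted p = 0.0586) and in a fit on root alone (0.0739). CML38 in shoot was lost with all probe sets tested (0.0524), array weights (0.0569), shoot alone (0.205) and without aladin shoot replicate 1 (0.0907) or 2 (0.0743) or WT shoot replicate 1 (0.0501).

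Rises among the list genes in root (10) became 16 with array weights and 6 at 2-fold or more, and were 9 to 11 without each library. Falls (1) became 5 with array weights, 2 without dim probe sets, in a fit on root alone and without WT shoot replicate 1, and 0 at 2-fold or more, with a range of 1 to 2 without each library. In shoot the rises (4) became 1 in a fit on shoot alone and 2 at an adjusted p of 0.01 (3 to 5 without each library), and the falls (2) became 1 in that fit and 1 at 2-fold or more (2 to 3 without each library).

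Over all tested probe sets, 1336 called in root became 2155 with all probe sets, 2700 with array weights, 709 at an adjusted p of 0.01 and 322 at 2-fold or more (870 to 1415 without each library, the lowest without aladin root replicate 2; 883 without WT root replicate 3). The 518 in shoot became 862 with a trend and robust prior, 202 with array weights, 58 in a fit on shoot alone, 126 at 0.01 and 94 at 2-fold or more (282 to 460 without each library, with 282, 293 and 305 without WT shoot replicate 2, aladin shoot replicate 3 and aladin shoot replicate 1). The 375 interactions became 594 with a trend and robust prior, 125 at 0.01 and 211 at 2-fold or more (211 to 374 without each library). The 10279 between WT organs became 20311 with all probe sets and 3544 at 2-fold or more (9238 to 10354 without each library). Without single root libraries the interactions were 220 and 235 (aladin replicates 2 and 3) and 213, 235 and 211 (WT replicates 1, 2 and 3). The causes were not tested.

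A replicate block, with same-numbered libraries as a batch, gave 1237 calls in root, 379 in shoot, 312 interactions and 10210 between WT organs, and ended the call of AT5G43450 alone among the 17. In root each library correlated best with its own number in 3 of 3 pairs, and in shoot in 0 of 3, a hint from the data and not from the design. No detection calls came with the values, so dim signals such as MSRB8 in shoot are limited by an unknown background.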
